A study of Mus musculus with 12 samples.

Results

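Endothelin system genes were followed in whole mouse lung after loss of the transcription factor NFAT5 from endothelial cells and after chronic hypoxia. Of 7 genes named for this system, 6 were found by their platform symbol among the 24704 genes tested: the ligand genes Edn1, Edn2 and Edn3, the type B receptor gene Ednrb, and the converting enzyme genes Ece1 and Ece2. The other member was not analysed here. Members were picked by name and not by a threshold on their values.

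Endothelins are small peptides that act on cells close to where they are released. They are cut from larger precursors, first by furin-like proteases and then by endothelin converting enzymes. Endothelin-1, made mainly by endothelial cells, is among the strongest known constrictors of pulmonary arteries, and antagonists of its receptors are used to treat pulmonary hypertension. The type B receptor on endothelial cells releases relaxing factors and takes up circulating endothelin-1, a clearance that takes place largely in the lung. The same receptor on smooth muscle causes constriction. In mouse lung Ednrb is also a marker of aerocytes, the thin capillary endothelial cells of gas exchange.

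Expression was measured with 12 Affymetrix arrays in 4 groups of 3. Hypoxic KO mice, labelled Nfat5(EC)-/-, had received 1 mg tamoxifen daily for 5 days to delete Nfat5 in endothelial cells and were kept in hypoxia for 21 days. Hypoxic control mice, labelled Nfat5fl/fl, had received only the solvent miglyol before the same exposure. Normoxic KO and normoxic control mice were prepared in the same ways and kept in normoxia. The control label gives floxed Nfat5 alleles, and all mice were males and females injected at 10 to 12 weeks of age and used after a recovery of 2 to 3 weeks. The labels and design text name no Cre driver. The deletion and tamoxifen cannot be told apart, because only KO mice received the drug. The design text counts 4 mice per group and states that the authors left out lungs with contaminating tissue or with an inadequate response to hypoxia, so the hypoxia comparisons rest on animals chosen in part by their response. Whether replicates within a group shared litters or extraction is not stated.

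Values are RMA expression on the log2 scale as the authors deposited them, in which 1 unit is a doubling. The lung markers Sftpc (13.36 to 13.58), Ager (12.29 to 12.62) and Scgb1a1 (13.58 to 13.68) were high in all 12 arrays, and the thymocyte genes Rag1 (3.29 to 3.62) and Dntt (2.90 to 3.11) stayed low. The brown fat marker Ucp1 reached 9.31 in normoxic KO 2 and 7.66 in hypoxic control 1, and the atrial hormone gene Nppa reached 11.94 in normoxic KO 2 and 9.41 in normoxic KO 4. Y-linked genes were high in 2 of 6 hypoxic and 4 of 6 normoxic arrays. The clock genes Dbp minus Arntl separated the hypoxic arrays (5.64 to 6.21) from the normoxic ones (-0.096 to 3.72). Clock genes also varied within normoxia. Dbp was 8.01, 8.52 and 9.14 in KO and 8.16, 9.89 and 9.98 in control lungs. Arntl was 8.11, 7.51 and 7.34 in KO and 7.73, 6.17 and 6.56 in control lungs. Nfat5 itself averaged 8.34 ± 0.15 in hypoxic KO and 8.43 ± 0.24 in hypoxic control lungs, and 8.67 ± 0.11 in normoxic KO and 9.11 ± 0.25 in normoxic control lungs (SD, n = 3 each). Its normoxic KO and control arrays did not overlap, as held for 11.7% of all genes. The difference of -0.44 ± 0.15 (SE) did not pass (limma adjusted p = 0.62). In hypoxia it was -0.08 ± 0.15 (limma adjusted p = 0.97), with overlap. With hypoxia Nfat5 fell by 0.68 ± 0.15 in control lungs (limma adjusted p = 0.016, and 0.011 to 0.067 with each compared array left out). In KO lungs it was -0.33 ± 0.15 (limma adjusted p = 0.38). It is not stated whether the probes lie in the deleted part. The part of sex, time of day and other tissue in the results was not tested except where a value is given.

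Promoter sequence is shown for Edn1 and Ednrb, the ligand and receptor genes described most fully below, with the core of the hypoxia-inducible factor (HIF) site in capitals. All 6 members matched RefSeq promoter windows of GRCm38.p6, each 300 bases long from 250 bases before the annotated start, with 4 windows for Ece1. In human EDN1 a HIF site lies between a GATA and an AP-1 site, and the mouse window held matches in the same order. Counted from the annotated start base as 0, a GATA match began at 8, a HIF core at 21 and an AP-1 match at 36. The following Edn1 stretch, on the plus strand at chr13:42301490-42301519, holds the HIF core and the AP-1 match in capitals.
Edn1: ctggctgCACGTtgcctgtgggTGACTAAt
The 250 bases before the annotated start of Ednrb, on the minus strand at chr14:103843702-103843951, held 1 HIF core, and another began 31 bases after the start.
Ednrb: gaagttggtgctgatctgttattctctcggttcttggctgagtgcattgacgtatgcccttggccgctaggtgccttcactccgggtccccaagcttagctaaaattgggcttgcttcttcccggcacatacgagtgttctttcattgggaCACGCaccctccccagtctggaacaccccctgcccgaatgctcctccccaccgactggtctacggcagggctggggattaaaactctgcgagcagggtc
Both strands were searched. The HIF core was ACGTG or its variant GCGTG. The GATA motif was AGATAA or its variant TGATAA. The AP-1 motif was TGACTAA, its variant TGACTCA, or the further variant TGAGTCA. Of all 32851 RefSeq windows, 43.8% held a HIF core, 18.6% a GATA match and 7.38% an AP-1 match. The tonicity element that NFAT5 binds was found in no member window, and 4.96% of all windows held it. The core GGAAA, part of that element, was found in windows of Edn1, Ece1 and Ece2 and in 61.3% of all windows. A match is a run of letters in these windows and not evidence of binding.

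The receptor gene Ednrb had the largest change with hypoxia among the 6 members in both genotypes. In KO lungs its level was 8.94, 9.07 and 8.91 in hypoxia, against 9.62, 9.70 and 9.92 in normoxia. In control lungs it was 9.12, 9.15 and 8.92 in hypoxia, against 9.87, 10.18 and 9.79 in normoxia. All 6 hypoxic arrays lay below all 6 normoxic arrays, and KO and control arrays overlapped within each oxygen state.

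Ednrb was lower in hypoxic than in normoxic KO lungs, with a log2 difference of -0.77 ± 0.12 (SE), a 0.586-fold level (limma adjusted p = 0.011). In control lungs it was lower by -0.88 ± 0.12, a 0.543-fold level (limma adjusted p = 0.0042). Over both genotypes the difference was -0.83 ± 0.08 (limma adjusted p = 0.00029), and an exact two-sided permutation test over 400 regroupings within genotypes gave p = 0.005. That is the smallest p these regroupings can give, and 3 arrays against 3 cannot go below 0.1. The hypoxia response of Ednrb in KO lungs minus that in control lungs was 0.11 ± 0.17 (95% interval -0.26 to 0.48, limma adjusted p = 0.89). No difference in response between genotypes was called, and differences within that interval remain possible.

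**Figure D1:**
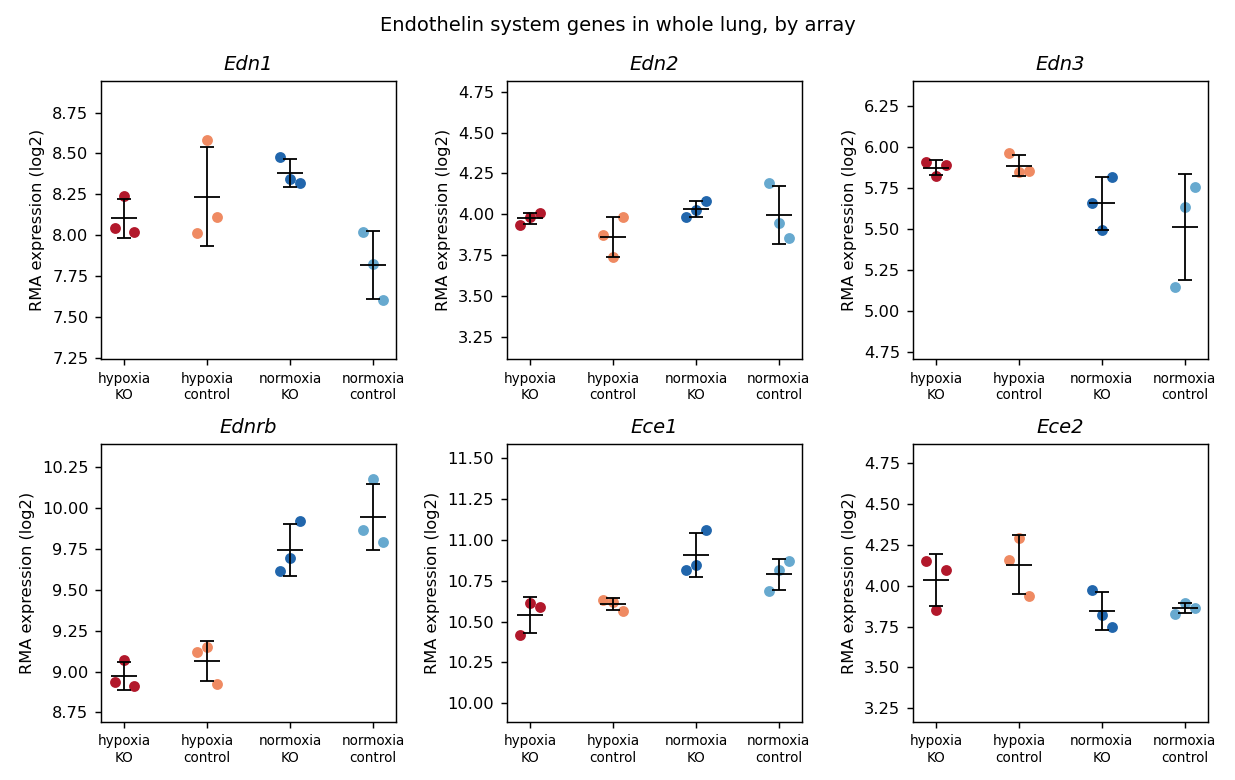
RMA expression (log2, y axis, the same span in every panel) of the 6 endothelin system genes in hypoxic KO, hypoxic control, normoxic KO and normoxic control lungs. Points are arrays and bars show the mean and SD of 3. Ednrb separates hypoxic from normoxic arrays by the widest gap, and the mean of Edn1 is lowest in normoxic control lungs.

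The call for Ednrb in KO lungs was lost without hypoxic KO 4 (-0.74, adjusted p = 0.060) and without normoxic KO 2 and hypoxic control 1 together, the arrays with Ucp1 (-0.80, adjusted p = 0.068). In control lungs it held without each compared array, with values from -0.96 to -0.77. Some RNAs that stay in the nucleus were also lower in hypoxia, with calls in control lungs alone. Of 12 nuclear noncoding RNAs 0 were called lower in KO lungs and 6 in control lungs, where 0.502% and 6.14% of all genes were. The list median was below 0 in both, at -0.15 in KO and -0.61 in control lungs. The per-array mean of this list was 5.38 to 5.73 in hypoxic and 5.61 to 6.02 in normoxic KO lungs, and 5.24 to 5.50 in hypoxic and 5.84 to 6.25 in normoxic control lungs. With that mean as a covariate, Ednrb was -0.73 ± 0.13 in KO lungs (adjusted p = 0.029) and -0.72 ± 0.21 in control lungs (adjusted p = 0.43), while the number of genes called in control lungs fell to 2, against 2839 without it. Because this mean does not overlap between hypoxic and normoxic control lungs, a lost call there with this covariate says little about any single gene or list.

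**Figure D2:**
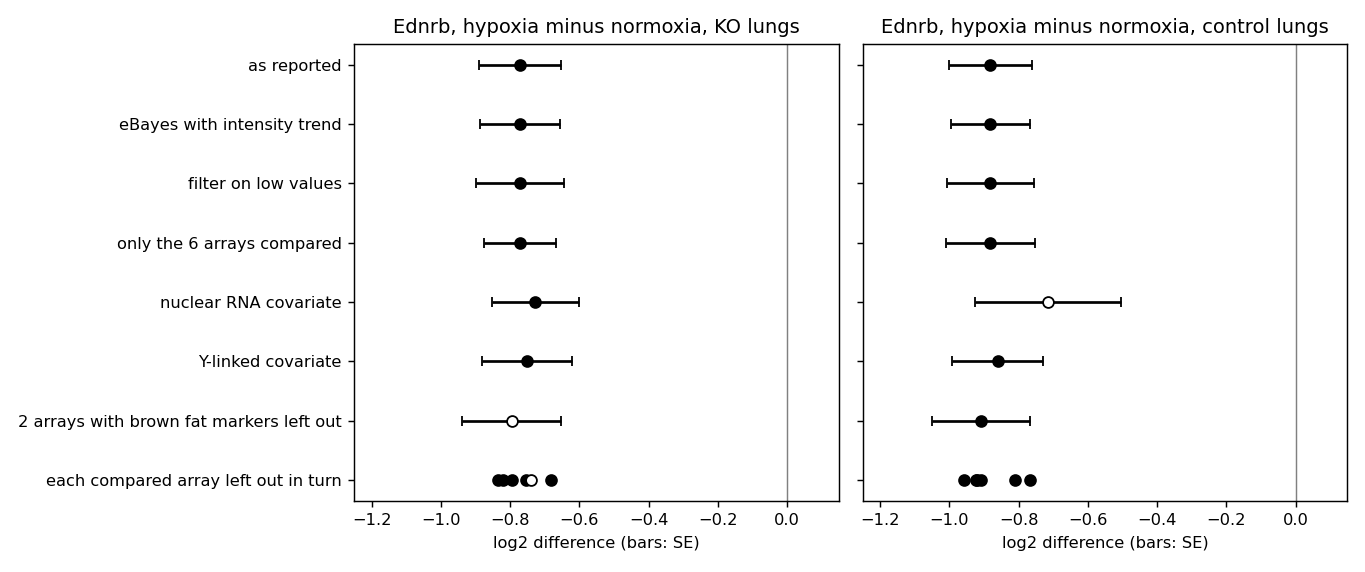
Log2 difference of Ednrb, hypoxia minus normoxia, in KO lungs (left) and control lungs (right) under each way of fitting. Filled points passed an adjusted p of 0.05 and open points did not, and bars are limma's SE (none for the arrays left out in turn). All values lie between -0.96 and -0.68.

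Other markers of aerocytes also fell, some by about as much as Ednrb. Without Ednrb, 3 of 10 measured aerocyte markers fell in KO lungs and 4 of 10 in control lungs, and 0 rose in either, with medians of -0.27 and -0.17 (medians over all genes 0.0033 and 0.011). Of all genes 0.502% were called lower in KO lungs and 6.14% in control lungs. Kdr, the main VEGF receptor, fell by 0.60 in KO lungs (adjusted p = 0.0085) and fell by 0.39 in control lungs (adjusted p = 0.018). Hpgd, which degrades prostaglandins, fell by 0.85 in KO lungs (adjusted p = 0.037) and fell by 0.96 in control lungs (adjusted p = 0.0073). Cyp4b1, a cytochrome P450 gene, fell by 0.52 in KO lungs (adjusted p = 0.023) and fell by 0.63 in control lungs (adjusted p = 0.0048). Fibin fell by 0.92 in control lungs (adjusted p = 0.0075) and was -0.52 ± 0.16 in KO lungs (adjusted p = 0.17). The carbonic anhydrase gene Car4, a defining marker of these cells, was 9.08 to 9.58 in hypoxic and 9.41 to 9.74 in normoxic arrays, so its ranges overlapped. Of the 11 markers with Ednrb included, 4 fell in KO lungs, but 1 did without the 2 arrays with Ucp1 or without hypoxic KO 4, and 2 did without hypoxic KO 2 or any 1 normoxic KO array. In control lungs 5 of 11 fell, and 0 did with the nuclear RNA covariate. Falls were not particular to aerocyte markers. Of 12 general capillary endothelial markers, 4 fell and 1 rose in KO lungs, and 5 fell and 1 rose in control lungs (medians -0.42 and -0.45). Of 10 arterial endothelial markers 3 fell in KO lungs and 2 in control lungs, and 0 rose in either.

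Within each array Ednrb was set against the mean of the other 10 aerocyte markers, a measure chosen after the values were seen. This difference was 0.59 ± 0.09 in hypoxic and 1.06 ± 0.10 in normoxic KO lungs, and 0.69 ± 0.08 in hypoxic and 1.30 ± 0.19 in normoxic control lungs (log2, SD, n = 3 each). Hypoxic arrays reached at most 0.75 and normoxic arrays were at least 0.95, so Ednrb and the mean of these markers changed unequally. That mean includes markers that were not called. In control lungs Hpgd (-0.96) and Fibin (-0.92) fell by more than Ednrb (-0.88), so this does not set Ednrb apart from the markers that fell. Against the mean of 18 pan-endothelial markers, the hypoxia difference of Ednrb was -0.63 in KO and -0.82 in control lungs. In whole tissue, fewer cells of a type and less RNA per cell cannot be told apart. Of the pan-endothelial markers 1 rose and 4 fell in KO lungs, and 2 rose and 4 fell in control lungs. Kdr, also counted as an aerocyte marker, was among those that fell in each. Of all genes 0.64% were called higher and 0.502% lower in KO lungs, and 5.36% higher and 6.14% lower in control lungs.

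Edn1, the precursor gene of endothelin-1, passed in none of the 7 contrasts, and its group means ran in another order. Its level was 8.04, 8.24 and 8.02 in hypoxic KO lungs, 8.02, 8.58 and 8.11 in hypoxic control lungs, 8.48, 8.35 and 8.32 in normoxic KO lungs, and 8.02, 7.82 and 7.61 in normoxic control lungs. By their means the groups ran, from high to low, normoxic KO (8.38 ± 0.09, SD), hypoxic control (8.24 ± 0.30), hypoxic KO (8.10 ± 0.12) and normoxic control (7.82 ± 0.21). Each group overlapped its neighbour in this order. Between hypoxic KO and normoxic control lungs the overlap was narrow, since the lowest hypoxic KO array and the highest normoxic control array were both at 8.02.

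In normoxia Edn1 was higher in all 3 KO arrays than in all 3 control arrays, by 0.56 ± 0.15 on the log2 scale (95% interval 0.24 to 0.89), a 1.48-fold level. It did not pass over all genes (limma p = 0.0026, adjusted p = 0.56), where 0.00405% of genes were called, and the exact permutation p was 0.1, the smallest possible. Groups failed to overlap for 1 of 6 members here and for 11.7% of all genes. The difference was 0.46 to 0.67 with each compared array left out in turn, 0.58 without normoxic KO 2, the array highest in Ucp1 and Nppa, and 0.54 with the nuclear RNA covariate. Relative to the mean of the pan-endothelial markers it was -1.33 ± 0.20 in normoxic KO lungs and -1.92 ± 0.27 in normoxic control lungs (log2, SD), and the ranges did not overlap. In hypoxia the difference between KO and control lungs was -0.13 ± 0.15 (95% interval -0.46 to 0.19, adjusted p = 0.96).

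With hypoxia Edn1 was -0.28 ± 0.15 in KO lungs, where all hypoxic arrays lay below all normoxic ones (adjusted p = 0.49, exact p = 0.1). It was 0.42 ± 0.15 in control lungs, where hypoxic control 1 lay just below normoxic control 1 (adjusted p = 0.089, exact p = 0.2). Without hypoxic control 2, the highest of that group, the control value was 0.25 (adjusted p = 0.30). The hypoxia response in KO lungs minus that in control lungs was -0.70 ± 0.21 (95% interval -1.15 to -0.24), which did not pass over all genes (limma adjusted p = 0.57). An unadjusted p under 0.05 was reached by 1 of 6 members and 8.25% of all genes in this contrast. The normoxic control arrays enter both the genotype difference in normoxia and the hypoxia response of control lungs, so these values share that group.

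Edn3, the precursor gene of endothelin-3, a ligand that acts mostly through the type B receptor, was somewhat higher in hypoxia. It was 5.91, 5.82 and 5.89 in hypoxic against 5.66, 5.49 and 5.82 in normoxic KO lungs. In control lungs it was 5.96, 5.85 and 5.85 in hypoxia, against 5.15, 5.64 and 5.76 in normoxia. All 6 hypoxic arrays lay above all 6 normoxic ones, though the closest pair nearly met. Over both genotypes the difference was 0.30 ± 0.10 (adjusted p = 0.068, exact p = 0.005). Among 18 alternatives it passed only without normoxic control 4 (0.36, adjusted p = 0.025). The values there ran from 0.17 to 0.37, with limma adjusted p up to 0.86. It was 0.22 ± 0.14 in KO lungs (adjusted p = 0.58) and 0.37 ± 0.14 in control lungs (adjusted p = 0.11), and among the alternatives it passed in control lungs only without normoxic control 4 (0.50, adjusted p = 0.038).

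Edn2, the precursor gene of endothelin-2, stayed between 3.74 and 4.19 in all 12 arrays, close to the level of 3.74 below which lay 95% of the olfactory receptor genes. Its hypoxia difference was -0.06 ± 0.10 in KO lungs and -0.13 ± 0.10 in control lungs (adjusted p = 0.90 and 0.42).

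Of the converting enzymes, Ece1, the main enzyme that makes mature endothelin-1, was lower in hypoxia. It was 10.42, 10.62 and 10.59 in hypoxic against 10.81, 10.85 and 11.06 in normoxic KO lungs. In control lungs it was 10.63, 10.62 and 10.57 in hypoxia, against 10.69, 10.81 and 10.87 in normoxia. All hypoxic arrays lay below all normoxic ones. Over both genotypes Ece1 fell by 0.27 ± 0.06, to a 0.828-fold level (limma adjusted p = 0.018, exact p = 0.005). Neither genotype passed alone, at -0.36 ± 0.09 in KO lungs (adjusted p = 0.097) and -0.18 ± 0.09 in control lungs (adjusted p = 0.23). The averaged call was lost with the Y-linked covariate (-0.26, adjusted p = 0.060) and with the nuclear RNA covariate (-0.26, adjusted p = 0.50), with little change in size.

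Ece2, a related enzyme active at acidic pH and best known from neural tissue, was low throughout, from 3.75 to 4.29. Like Edn2, with a mean of 3.97, it lay close to the level of 3.74 set by the olfactory receptor genes. Its differences between groups are therefore near the floor of the arrays. It was 4.15, 3.85 and 4.10 in hypoxic against 3.97, 3.82 and 3.75 in normoxic KO lungs, and the groups overlapped. In control lungs it was 4.16, 4.29 and 3.94 in hypoxia, against 3.83, 3.89 and 3.86 in normoxia, without overlap. Over both genotypes the difference was 0.23 ± 0.08 (adjusted p = 0.074), and it passed without hypoxic KO 3 and without hypoxic control 4. Other arrays left out gave limma adjusted p up to 0.17. Over all alternatives the value ran from 0.11 to 0.28, with limma adjusted p up to 0.89.

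In counts, 1 of 6 members was called with hypoxia in KO lungs, where 1.14% of all genes were, and 1 of 6 in control lungs, where 11.5% were. Both calls were Ednrb, which was lower, where 0.502% of all genes were called lower in KO and 6.14% in control lungs. No member was called higher, where 0.64% and 5.36% of all genes were. Over both genotypes 2 of 6 were called, Ednrb and Ece1, both lower, where 14.7% of all genes were called, 7.4% lower and 7.27% higher. Hypoxic and normoxic arrays did not overlap for 3 of 6 members over both genotypes (Edn3, Ednrb and Ece1), against 6.19% of all genes. In KO lungs alone 4 of 6 did not overlap (Edn1, Edn3, Ednrb and Ece1), against 19.8% of all genes, and in control lungs 4 of 6 (Edn3, Ednrb, Ece1 and Ece2), against 27.7%. An unadjusted p under 0.05 was reached with hypoxia by 2 of 6 members in KO lungs, 4 of 6 in control lungs and 4 of 6 over both, where 12.6%, 27.4% and 28.4% of all genes reached it. The median log2 difference of the members was -0.17 in KO and 0.066 in control lungs. Between KO and control lungs 0 of 6 members passed in hypoxia, in normoxia or averaged over both. Of all genes 0%, 0.00405% and 0% passed, so these counts do not set the members apart. At an unadjusted p under 0.05 the counts were 0, 1 and 0, where 5.1%, 7.26% and 4.26% of all genes reached it. For Ednrb the genotype difference was -0.09 ± 0.12 in hypoxia and -0.20 ± 0.12 in normoxia (95% intervals -0.35 to 0.17 and -0.46 to 0.06), and for Ece1 -0.07 ± 0.09 and 0.12 ± 0.09.

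**Figure D3:**
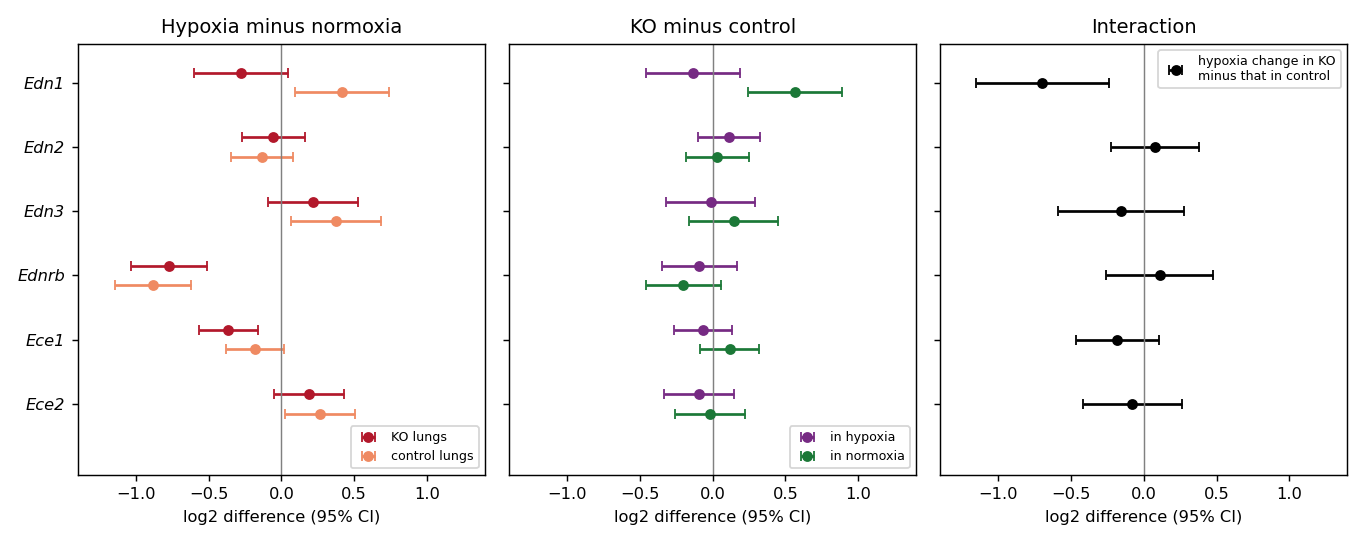
Log2 differences of the 6 members with limma's 95% intervals. The panels show hypoxia minus normoxia in KO and control lungs (left), KO minus control in hypoxia and normoxia (middle) and the hypoxia difference in KO minus that in control lungs (right). The Ednrb hypoxia intervals lie below 0 in both genotypes. Before adjustment over all genes, the Edn1 intervals exclude 0 for hypoxia in control lungs, for KO minus control in normoxia and for the interaction. So do the hypoxia intervals of Ece1 in KO lungs and of Edn3 and Ece2 in control lungs.

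Among genes that process or remove endothelins, some that cut the precursors or the peptide rose with hypoxia. In KO lungs 1 of 10 rose and in control lungs 3 of 10, and 0 fell in either (medians 0.069 and 0.16). Of all genes 0.64% were called higher in KO lungs and 5.36% in control lungs. Mmp2, a gelatinase that can also cleave endothelin-1 precursor, rose by 0.92 ± 0.18 in KO lungs (adjusted p = 0.041) and by 1.54 ± 0.18 in control lungs (adjusted p = 0.0021). Ctsa, a lysosomal carboxypeptidase that inactivates endothelin-1, was 0.31 ± 0.07 in KO lungs (adjusted p = 0.081) and rose by 0.43 ± 0.07 in control lungs (adjusted p = 0.0077). Furin, which makes the first cut in the precursor, was 0.29 ± 0.09 in KO lungs (adjusted p = 0.17) and rose by 0.35 ± 0.09 in control lungs (adjusted p = 0.027). Neprilysin, another endothelin-degrading peptidase encoded by Mme, was -0.16 ± 0.17 and -0.23 ± 0.17 (adjusted p = 0.80 and 0.44). It was named for its role after its values were seen. In KO lungs no gene of the list, Mmp2 included, was called in 8 of 12 alternatives. These were the fits without the 2 arrays with Ucp1, in the 6 compared arrays alone, with the nuclear RNA covariate, and without each KO array other than normoxic KO 1. In control lungs 2 to 3 of the 10 rose in the alternatives other than the nuclear RNA covariate, where 0 did.

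Genes that carry the receptors' signal mostly did not pass. Of 32 measured genes for G proteins, phospholipases, calcium channels, kinases and receptor regulators, 0 rose and 1 fell in KO lungs, and 1 rose and 4 fell in control lungs (medians -0.029 and -0.081). The called share in control lungs, 15.6%, was near the 11.5% of all genes, so the genes below are given for their roles and not as a result about signalling. Arhgef12, an exchange factor that activates RhoA below G12 and G13 proteins, fell by 0.55 ± 0.09 in KO lungs (adjusted p = 0.020) and fell by 0.57 ± 0.09 in control lungs (adjusted p = 0.0066), and its hypoxic arrays (9.63 to 9.90) lay below its normoxic arrays (10.26 to 10.47). In control lungs Prkce, a protein kinase C, fell by 0.59, Plcb2, a phospholipase C, fell by 0.58, and Gnaq, the G protein subunit that couples endothelin receptors to phospholipase C, fell by 0.45 (adjusted p = 0.012, 0.029 and 0.030). Rgs4, which switches off Gq signalling, rose by 1.12 ± 0.25 there (adjusted p = 0.019) and was 0.63 ± 0.25 in KO lungs (adjusted p = 0.31). In KO lungs no gene of the list, Arhgef12 included, was called in 7 of 12 alternatives, namely without the 2 arrays with Ucp1, in the 6 compared arrays alone, and without each KO array other than hypoxic KO 3. In control lungs 0 to 3 of the 32 rose and 0 to 5 fell over the alternatives. There, 1 fell without hypoxic control 2 or normoxic control 2 and 2 fell without normoxic control 1. The Rgs4 call was lost without hypoxic control 2, hypoxic control 4 or normoxic control 1, in the 6 compared arrays alone and with the nuclear RNA covariate.

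Of 12 genes for transcriptional regulators of Edn1, 0 passed in KO lungs and 1 fell in control lungs, where 6.14% of all genes were called lower, so the count sets these regulators apart in neither direction. Fos, a subunit of AP-1, was -1.21 ± 0.28 in KO lungs (adjusted p = 0.071) and fell by 1.01 ± 0.28 in control lungs (adjusted p = 0.039). The list held no call in control lungs in 8 of 12 alternatives: without the 2 arrays with Ucp1, in the 6 compared arrays alone, with either covariate, and without hypoxic control 1, hypoxic control 2, normoxic control 1 or normoxic control 4. The HIF subunit gene Hif1a was 0.04 ± 0.12 and -0.26 ± 0.12, and its partner Arnt -0.04 ± 0.10 and -0.01 ± 0.10. In none of the 3 pathway lists did a gene pass between KO and control lungs in either oxygen state, or in the interaction. Of all genes 0% passed in hypoxia, 0.00405% in normoxia and 0.00405% in the interaction, so this does not set the lists apart.

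With the nuclear RNA covariate, 0 genes of the 3 pathway lists passed in control lungs, and in KO lungs 1 signalling gene and 1 regulator fell.

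**Figure D4:**
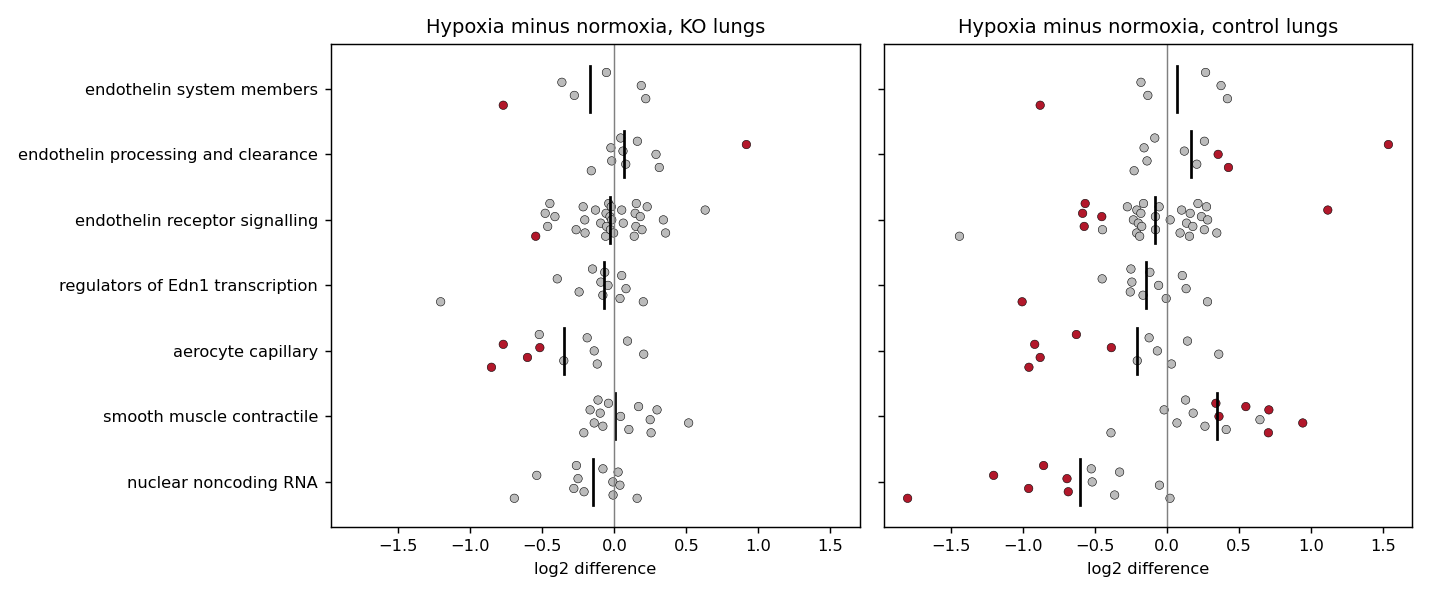
Log2 difference, hypoxia minus normoxia, of each measured gene in the members, the 3 pathway lists and 3 marker lists, in KO lungs (left) and control lungs (right). Red points passed an adjusted p of 0.05 over all genes, grey points did not, and black bars are list medians. Ednrb is the red point among the members.

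The genes whose level most closely followed Edn1 over the 12 arrays were Extl1 (r = 0.89), A2ml1 (r = 0.87), Nadk (r = 0.85), Nobox (r = 0.85) and Clca3b (r = 0.82). A2ml1 was -0.59 with hypoxia in KO lungs (adjusted p = 0.54) and rose by 1.19 in control lungs (adjusted p = 0.048), the same signs as Edn1. Ednrb was followed most closely by Traj21, Itm2b, Fmo1, Tspan13 and Ddx5, each with r = 0.97. Fmo1, a flavin-containing monooxygenase, fell by 0.93 in KO lungs and fell by 1.00 in control lungs (adjusted p = 0.00080 and 0.00031). These are Pearson correlations picked as the highest over all named genes. The 12 points share the 4 groups and 1 normalization, so they describe likeness only.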

How the data were processed

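Whole lung RNA from 12 mice was profiled on Affymetrix arrays. The authors deposited log2 expression values for 25428 probe sets, made with RMA per the submitters' processing notes; no version or filter is stated there. Once sorted, the 12 arrays held identical values, so total RNA cannot be compared. No depth applies to arrays, whose number limits precision.

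Platform annotation gave 24705 probe sets 1 gene symbol, 723 none and 0 several, and 24672 of the 24704 genes were found in a GRCm38.p6 gene table. The brighter of duplicate probe sets was kept. Each gene was fitted with limma 3.58.1 (R 4.3.3) with a mean per group (8 residual degrees of freedom). For 7 contrasts, tested two-sided, Benjamini-Hochberg adjustment ran over all 24704 genes, and calls needed an adjusted p under 0.05. Adjusted p-values and the errors of differences come from limma. The fitting was tested on simulated data. Exact permutation tests used sample labels.

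Members and lists were chosen with earlier results of these data known. Named genes were the members, Nfat5, the 5 genes most correlated with Edn1 and with Ednrb, and up to 6 called members of each list described (or its first 2). A planned within-array comparison of the receptors was not made, as 1 member was not analysed here. Alternatives were an intensity trend, a filter at the 95th percentile of olfactory receptor genes, the 6 compared arrays alone, a replicate block, nuclear RNA and Y-linked covariates, and arrays left out. Replicate numbers were not taken to pair mice: 4 of 15 correlations between same-numbered arrays exceeded 0.1 (range -0.25 to 0.28).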

Additional observations from a re-analysis of the deposited data

How the results depend on the processing

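The 3 arrays per group limit precision. Replicate numbers were not taken to pair the mice. With the replicate block, in which the only array numbered 3 (hypoxic KO 3) drops out of the estimates, Ednrb in KO lungs was -0.85 (adjusted p = 0.078), so members called there numbered 0, as did calls in the processing, signalling and aerocyte lists, and Ece2 over both genotypes was 0.28 (adjusted p = 0.047). The block gave 40 genes called in KO lungs, 0 for KO minus control in normoxia and 0 for the interaction, and reversed Ece2 for KO minus control in hypoxia (0.016), over both oxygen states (0.00028) and in the interaction (0.031), and Ece1 over both oxygen states (-0.0068).

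With the nuclear RNA covariate, genes called with hypoxia numbered 170 in KO lungs, 2 in control lungs and 80 over both genotypes, 0 passed in the interaction, and members called were 0 in control lungs and 0 over both genotypes, where Ednrb was -0.72 (adjusted p = 0.072). It reversed Edn3 for KO minus control in hypoxia (0.048) and, in the interaction, Edn2 (-0.013), Ednrb (-0.012) and Ece2 (0.058). With the Y-linked covariate, 166, 1794 and 2180 genes were called with hypoxia in KO, control and both, 0 in the interaction and 1 member over both, and Edn1 over both genotypes turned to -0.021. Without the 2 arrays with brown fat markers, 51 genes and 0 members were called in KO lungs, 0 genes for KO minus control in normoxia and 0 in the interaction, and Edn3 for KO minus control in hypoxia was 0.025. In the 6 compared arrays alone, 1100 genes were called with hypoxia in control lungs, 1 for KO minus control in hypoxia and 0 in normoxia. With an intensity trend 1 gene passed for KO minus control over both oxygen states. The cause was not tested for any of these.

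Leaving out each array compared gave 71 to 148 genes and 0 to 1 members with hypoxia in KO lungs, 808 to 3920 genes and 1 to 2 members in control lungs, 2254 to 4426 genes and 2 to 3 members over both, 0 to 0 genes for KO minus control in normoxia and 0 to 3 in the interaction. Uncalled values that changed sign ranged, for hypoxia over both genotypes, from -0.016 to 0.13 (Edn1). For KO minus control in hypoxia they ranged from -0.24 to 0.040 (Edn1) and -0.033 to 0.025 (Edn3). In normoxia they ranged from -0.039 to 0.13 (Edn2), -0.040 to 0.27 (Edn3) and -0.079 to 0.035 (Ece2), and over both oxygen states from -0.026 to 0.13 (Edn3) and -0.013 to 0.057 (Ece1). In the interaction they ranged from -0.020 to 0.15 (Edn2), -0.28 to 0.027 (Edn3), -0.0055 to 0.20 (Ednrb) and -0.18 to 0.011 (Ece2). Every value of Ednrb with hypoxia in KO or control lungs, under these alternatives, was below 0.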

Other observations

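Endothelin-1 can also be made by mast cell chymase and acts on smooth muscle, so markers of these cells are given. Of 8 mast cell markers 0 passed with hypoxia in either genotype. The chymase gene Cma1, chosen after its values were seen, was 0.04 ± 0.12 in KO lungs and 0.21 ± 0.12 in control lungs (adjusted p = 0.94 and 0.28). Of 14 smooth muscle contractile genes 0 passed in KO lungs and 6 rose in control lungs, where 5.36% of all genes were called higher, led by Lmod1, an actin nucleator, at 0.94 ± 0.13 (adjusted p = 0.0043), which was 0.25 ± 0.13 in KO lungs (adjusted p = 0.45). With the nuclear RNA covariate 0 of the 14 passed in control lungs. In the interaction 0 of the 14 passed, where 0.00405% of all genes did, with a median of -0.25 against -0.00098 for all genes. Rises in control lungs were not particular to smooth muscle. Of 12 fibroblast markers 1 rose in KO lungs and 7 in control lungs, and of 10 pericyte markers 0 and 4, and 0 fell. The medians in control lungs were 0.60 for fibroblast, 0.43 for pericyte and 0.35 for smooth muscle genes. Of 6 measured neuroendocrine markers 0 passed in KO lungs and 2 rose in control lungs, the synaptic vesicle gene Syp by 0.48 (adjusted p = 0.029) and Uchl1, a ubiquitin hydrolase, by 0.48 (adjusted p = 0.041).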
